A study of Rattus norvegicus with 20 samples.

Results

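Immediate early genes are the genes whose transcription rises first when a cell receives a signal, and 9 of them were followed here in rat leg muscle: Nr4a1, Nr4a2, Nr4a3, Fos, Jun, Junb, Egr1, Atf3 and Btg2. The members were all probe sets whose only gene symbol in the platform annotation was 1 of these 9. They came to 21 of the 8799 probe sets of the array and covered 8 of the 9 genes, with 4 probe sets each for Jun and Egr1, 3 each for Nr4a3 and Fos, 2 each for Nr4a1, Nr4a2 and Junb, and 1 for Atf3. No probe set was paired with Btg2 alone, so Btg2 has no value here. Of the 21, 19 passed the filter on dim probe sets and were tested; a tested probe set exceeded the 40th percentile of the array in 5 or more of the 20.

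The proteins encoded by these genes are mostly transcription factors. Their promoters are held ready and answer within minutes to calcium, cyclic AMP and MAP kinase signals, through factors such as CREB and serum response factor that are already in the cell, and the transcripts are short-lived. In rodent skeletal muscle these genes are known to respond to contraction and to adrenergic stimulation, and the NR4A nuclear receptors are known there as activators of genes for glucose uptake and use.

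RNA from rear-leg muscle of rats was hybridised to 20 one-colour Affymetrix arrays, 1 per sample, in 4 groups of 5: diabetic rats given vanadyl sulfate, untreated diabetic rats, normal rats given vanadyl sulfate and untreated normal rats. Vanadyl sulfate is a vanadium salt with insulin-like actions. The labels give neither strain, sex nor age, and they state no cause of the diabetes, no named leg muscle, and no dose or duration for vanadyl sulfate. The labels number the samples as replicates without saying that each came from its own animal, so p-values measure the spread between these samples.

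Markers of skeletal muscle were present as the label says: 9 of 12 had a probe set, and 8 of these, among them Ckm (muscle creatine kinase) and Acta1 (skeletal alpha-actin), had a median rank at or above the 99.2nd percentile of the array. Immune cell markers, of which 10 of 15 had a probe set, summed to signals of 9274.5 to 16418.1 in treated diabetic, 18417.8 to 86407.6 in diabetic, 11185 to 14246.7 in treated normal and 8743.5 to 13885.1 in normal arrays. Diabetic replicates 1 and 3 had the highest immune marker level, on average 2.18 and 2.22 log2 units above the normal mean over the 10 markers. The Gapdh 3'/5' control ratio, a sign of RNA quality, reached 3.94 on the log2 scale in treated diabetic replicate 1, against 2.90 and 2.91 in normal replicates 1 and 3, while the remaining 17 arrays stayed at 1.30 or below. The beta-actin 3'/5' control ratio differed between groups. It ran from 1.20 to 2.61 on the log2 scale in treated diabetic and 0.93 to 2.52 in diabetic arrays, with medians of 2.09 and 1.97. In treated normal and normal arrays it ran from 0.48 to 2.09 and 0.58 to 3.01, with medians of 0.75 and 0.63. Correlations between arrays, over all tested probe sets on the log2 scale, ran from 0.68 to 0.97.

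Windows of 250 bases before a start site were available for 5 of the 9 genes, as RefSeq gives them for the rat assembly GRCr8, and 3 are printed. For Junb, Egr1 and Btg2 the window adjoins the outer end of the annotated gene, while for Nr4a1 and Nr4a2 it lies inside the annotated gene span, before a start site within it. Nr4a1 is shown because it holds the only call among the members, Nr4a2 because it belongs to the same receptor family and Junb as an AP-1 gene. Capitals mark, on either strand, the 5-base core TGACG of the cyclic AMP response element (which binds CREB), the EGR site GCGNGGGCG and TATAAA; a match on the other strand reads as the reverse complement. The windows lie at chr7:134259888-134260137 (plus strand), chr3:62104888-62105137 (minus strand) and chr19:40080876-40081125 (plus strand).
Nr4a1: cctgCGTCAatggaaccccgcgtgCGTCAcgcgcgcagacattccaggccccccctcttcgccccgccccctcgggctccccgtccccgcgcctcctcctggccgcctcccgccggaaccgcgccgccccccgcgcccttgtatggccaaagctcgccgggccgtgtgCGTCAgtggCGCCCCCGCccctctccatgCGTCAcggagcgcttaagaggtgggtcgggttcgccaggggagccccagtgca
Nr4a2: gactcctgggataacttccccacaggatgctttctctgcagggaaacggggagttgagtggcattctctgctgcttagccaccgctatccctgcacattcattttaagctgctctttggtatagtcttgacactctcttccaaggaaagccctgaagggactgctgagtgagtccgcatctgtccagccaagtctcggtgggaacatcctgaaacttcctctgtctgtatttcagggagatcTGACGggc
Junb: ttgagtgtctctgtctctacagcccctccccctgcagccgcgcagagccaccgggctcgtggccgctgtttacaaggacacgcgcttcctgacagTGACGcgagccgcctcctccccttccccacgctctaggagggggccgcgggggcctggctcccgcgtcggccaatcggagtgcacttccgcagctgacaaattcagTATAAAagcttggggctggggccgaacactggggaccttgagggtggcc

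Nr4a1 held 4 copies of the TGACG core, which 0.173% of the 33469 RefSeq windows of this length match or exceed, and 1 EGR site, which 4.29% of windows hold. Nr4a2 held 1 core, as did Junb, and at least 1 core is found in 18.2% of windows; Junb also held TATAAA, which 12.9% of windows hold. Egr1, whose window is not printed, held 2 CArG boxes, the binding motif of serum response factor, together with 2 TGACG cores, and 0.0209% of windows have 2 or more CArG boxes. Btg2 held the full response element TGACGTCA, which contains the core on both strands and is found in 1.59% of windows, and 1 EGR site. No window of these 5 held the AP-1 site TGANTCA or the NR4A monomer site AAAGGTCA, present in 6.34% and 1.24% of windows. A match is a matter of letters only, and binding was not measured.

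**Figure D1:**
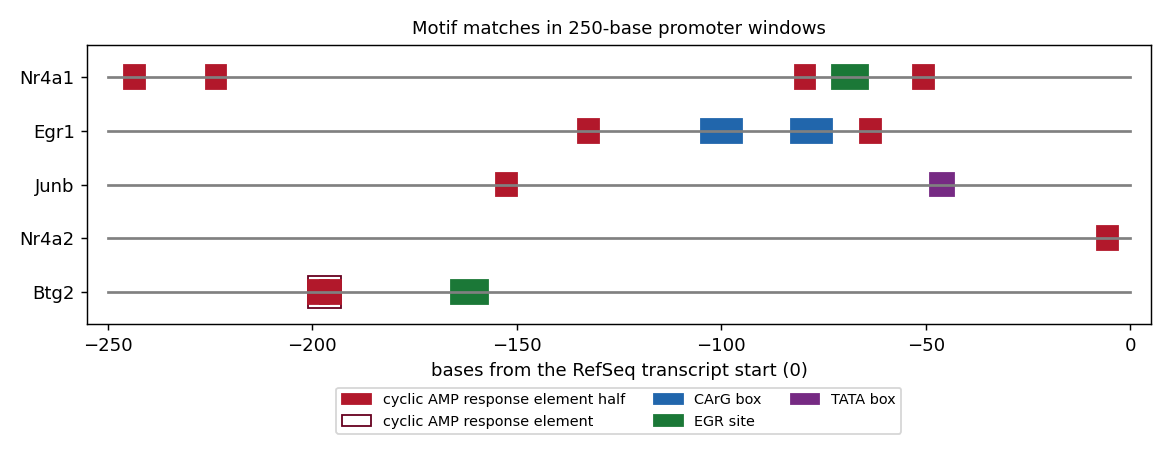
Position of motif matches in the 250 bases before the RefSeq start of the 5 genes with a window (x axis, bases from the start at 0; filled boxes are matches on either strand, coloured by motif, and the open box is the full response element of Btg2). Nr4a1 carries 4 TGACG cores, and Egr1 carries 2 CArG boxes beside its 2 TGACG cores.

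Nr4a1 (NUR77), an orphan nuclear receptor that activates genes of glucose use in rodent muscle, was the member that passed the test. The signal of probe set U17254_g_at in treated diabetic replicates 1 to 5 was 20618, 14717.7, 15589, 35009.8 and 21066.2, against 5347.3, 6079.4, 4431.8, 10031.6 and 12907.2 in diabetic replicates. All 5 treated diabetic arrays lay above all 5 diabetic arrays. Treated normal replicates had 26144.1, 20682.5, 26297.2, 24991.3 and 20542.3, against 28033.2, 11956.8, 13263.9, 14940.8 and 11822.4 in normal replicates. The treated normal arrays lay close together, and replicate 1 was the single high array of the normal group.

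Nr4a1 (U17254_g_at) rose by 1.51 ± 0.32 on the log2 scale (SE; 2.84-fold, 95% interval 0.85 to 2.16) in treated diabetic against diabetic muscle, with an adjusted p of 0.0360 by limma with Benjamini-Hochberg adjustment over 6027 probe sets. It was 1 of 19 member probe sets called in this comparison, where 0.498% of all tested probe sets were called, and 0.0498% as higher. Group means of log2 signal were 14.31 ± 0.50 in treated diabetic and 12.81 ± 0.65 in diabetic muscle (SD, n = 5 each). The call was kept when any 1 of 14 of the 20 arrays was left out, with adjusted p down to 0.0104, and lost without any 1 of the other 6: the adjusted p was 0.110, 0.0687 and 0.149 without diabetic replicates 1, 2 and 3, and 0.0727, 0.0689 and 0.0670 without treated diabetic replicates 1, 4 and 5. The log2 difference stayed between 1.31 and 1.72 when any 1 of the 20 arrays was left out. The call was also lost in a fit of the 2 groups alone, with an adjusted p of 0.109, and without the filter on dim probe sets, at 0.0523.

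Diabetic muscle had the lowest mean Nr4a1 signal of the 4 groups. The order of mean log2 signal was 14.53 ± 0.18 in treated normal, 14.31 ± 0.50 in treated diabetic, 13.88 ± 0.52 in normal and 12.81 ± 0.65 in diabetic muscle (SD, n = 5 each). Against treated normal muscle, the treated diabetic difference was -0.21 ± 0.32 (SE; adjusted p = 0.766 by limma), and treated diabetic minus normal was 0.43 ± 0.32 (adjusted p = 0.554). Diabetic minus normal was -1.08 ± 0.32, with an adjusted p of 0.0826 by limma. Diabetic replicate 5, the highest of its group, lay above the 2 lowest normal arrays, and without it the difference was -1.29 with an adjusted p of 0.0449. Treated normal minus normal was 0.64 ± 0.32 (adjusted p = 0.538). The treatment differences in diabetic and in normal rats differed by 0.86 ± 0.45 (adjusted p = 0.416 for the interaction). The diabetic arrays enter both diabetic comparisons, so these are not independent of each other.

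In these bulk samples fewer cells of a type and less RNA per cell cannot be told apart. The diabetic arrays lowest for Nr4a1, replicates 3 and 1, were those with the highest immune marker level. Immune markers moved between the same groups: 5 of the 9 tested rose in diabetic against normal muscle, against 1.34% of 3582 genes. In treated diabetic against diabetic muscle 3 of them fell, against 0.558% of genes. Without diabetic replicates 1 and 3 together, an alternative added after seeing the data, the Nr4a1 difference was 1.14 ± 0.34 (SE; adjusted p = 0.490 by limma). Adipocyte markers had the same order: 3 of the 5 tested rose in diabetic against normal muscle (median 1.55), against the same 1.34% of genes. In treated diabetic against diabetic muscle 1 fell (median -0.82), against 0.558%. Diabetic replicates 1 and 3 were again highest, at 1.40 and 1.49 log2 units above the normal mean. Of the 9 skeletal muscle markers 0 passed in either comparison, with medians of 0.71 for treated diabetic minus diabetic and -0.43 for diabetic minus normal. The part of immune cells, adipocytes or muscle fibres in the Nr4a1 difference was not tested.

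**Figure D2:**
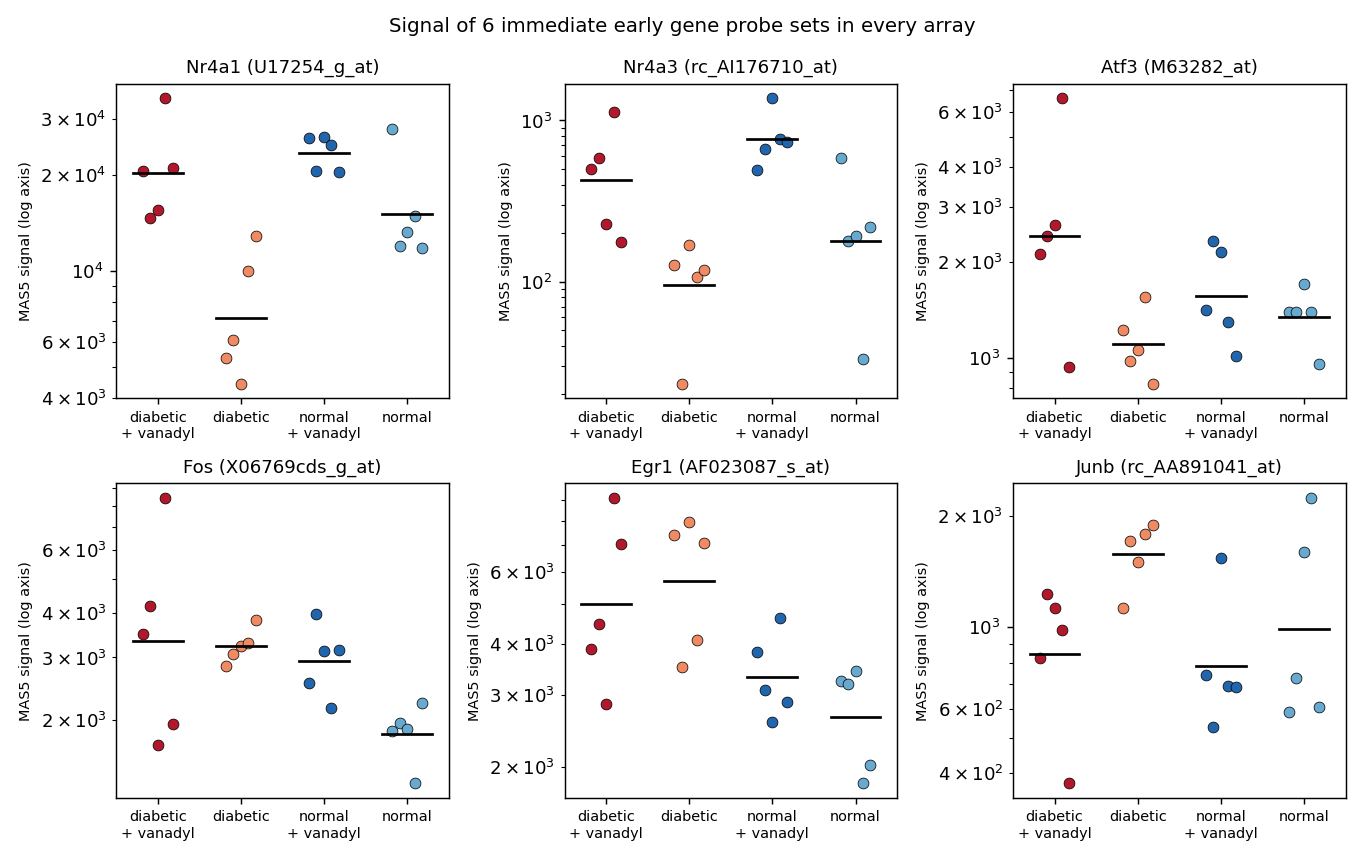
MAS5 signal (log axis) of 6 member probe sets in every array, with 1 point per array and a bar at the group mean of log2(signal + 16). For Nr4a1 the treated diabetic arrays, 14717.7 or more, lie above all diabetic arrays, 12907.2 or less; the scales differ between panels.

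The second Nr4a1 probe set, U17254_at, did not pass in any comparison. Its signal was 969.2, 4866.5, 2246, 6367.5 and 679.3 in treated diabetic replicates, against 1070.4, 1093, 710.5, 2068.2 and 2153.8 in diabetic replicates. Treated normal arrays had 3720.1, 7277.3, 8147.9, 4739.2 and 7904.1, against 1124.4, 5337.3, 1760.5, 5486.7 and 3480.9 in normal arrays. Treated diabetic replicates 1 and 5 were low here and were not low by U17254_g_at, and the treated diabetic and diabetic groups overlapped. Its differences were 0.72 ± 0.56 for treated diabetic minus diabetic (SE; adjusted p = 0.536 by limma), -1.14 ± 0.56 for diabetic minus normal (0.311) and 1.07 ± 0.56 for treated normal minus normal (0.569).

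The 2 Nr4a1 probe sets diverged most in arrays with a high 3'/5' ratio. The log2 difference between them, U17254_g_at minus U17254_at, was 4.62 and 2.90 in normal replicates 1 and 3 and 4.39 in treated diabetic replicate 1, the 3 arrays with a Gapdh ratio above 2. Treated diabetic replicate 5 had the largest difference, 4.92, with a Gapdh ratio of 1.30. Over the 17 arrays with a Gapdh ratio of at most 2, the difference rose with the ratio (Pearson r = 0.83, Spearman rho = 0.90, permutation p = 1e-05 for each, the smallest that 100000 permutations can give). With the 2 most distant ratios left out r was 0.81, and with group means removed it was 0.75. Over all 20 arrays the difference also rose with the beta-actin ratio (r = 0.78, permutation p = 2e-05; rho = 0.78, permutation p = 0.00014; r = 0.66 without the 2 farthest arrays). These were the 2 relations computed, each with an adjusted permutation p of 2e-05 for r, and they were chosen after the values were seen. Across the 20 arrays, U17254_at correlated with the Gapdh ratio at r = -0.63 and U17254_g_at at r = 0.10, given as a description.

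**Figure D3:**
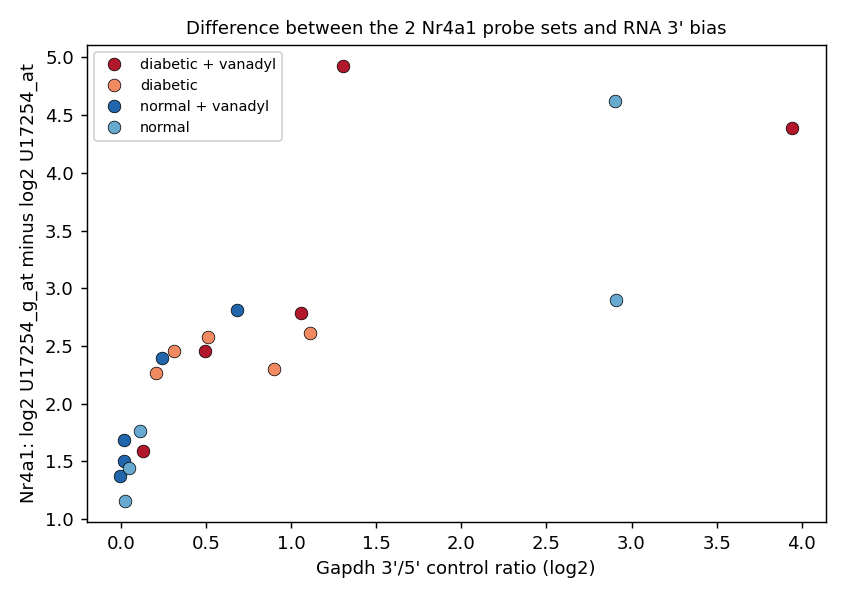
Log2 signal of U17254_g_at minus that of U17254_at (y axis) against the log2 Gapdh 3'/5' control ratio (x axis), 1 point per array, coloured by group. Apart from treated diabetic replicate 5 at 4.92, the arrays with a ratio of at most 2 lie between 1.16 and 2.81, and 3 arrays stand to the right of a ratio of 2.

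Nr4a3 (NOR1), a second receptor of the family, showed the same order of groups in 1 probe set without passing the test. For rc_AI176710_at the signal was 496.8, 584, 227.9, 1135.5 and 175.9 in treated diabetic replicates, against 127.2, 23.3, 169.2, 106.6 and 118.3 in diabetic replicates. It was 494.1, 667.9, 1379.4, 766.3 and 733 in treated normal replicates, against 582.5, 178.2, 190.8, 33.3 and 218.8 in normal replicates. The treated diabetic arrays all lay above the diabetic arrays, the lowest by a small margin, and the treated normal and normal groups overlapped only through normal replicate 1. Member probe sets whose treated diabetic arrays all lay above the diabetic ones numbered 2, this one and Nr4a1 U17254_g_at, of 19, against 2.37% of all tested probe sets. For Nr4a3 the filter partly fixed this, since the probe set passed it through the groups where it was bright.

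For this Nr4a3 probe set, treated diabetic minus diabetic was 1.98 ± 0.57 (SE; 3.95-fold, adjusted p = 0.122 by limma), and treated normal minus normal was 2.00 ± 0.57 (4.00-fold, adjusted p = 0.315). The interaction was -0.02 ± 0.81, with a 95% interval of -1.70 to 1.66. Diabetic minus normal was -0.80 ± 0.57 (adjusted p = 0.488). The probe set was dim: it lay above its array's 40th percentile in 3 of 5 treated diabetic, 0 of 5 diabetic, 5 of 5 treated normal and 1 of 5 normal arrays, so it was tested only because it was brighter in the treated groups.

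A second Nr4a3 probe set, X86003_at, had signals of 1261.8, 442.8, 463.6, 448.1 and 159.7 in treated diabetic replicates, against 438.8, 577.5, 109.6, 182.5 and 414.2 in diabetic replicates. Treated normal arrays had 592.1, 716.9, 646.6, 789.8 and 386, against 321.7, 166.4, 326.8, 575.6 and 132.6 in normal arrays. The groups overlapped in both comparisons. Treated diabetic minus diabetic was 0.60 ± 0.49 (SE; adjusted p = 0.559 by limma) and treated normal minus normal was 1.14 ± 0.49 (adjusted p = 0.513). The third, rc_AI145834_at, failed the filter, with signals of 45.2 to 84.9 in treated diabetic, 49.1 to 342.8 in diabetic, 67.3 to 185.4 in treated normal and 53.9 to 283.4 in normal arrays.

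Nr4a2 (NURR1), the third receptor, differed by little between groups. U01146_s_at had signals of 259.2, 631.4, 504.3, 557.8 and 602.3 in treated diabetic replicates, against 439.8, 413.1, 784.2, 566.5 and 403.5 in diabetic replicates. In treated normal replicates it had 534.1, 143.9, 180.1, 698.5 and 551.7, against 558.8, 321.3, 778.9, 282.1 and 531.6 in normal replicates. All 4 groups overlapped. Treated diabetic minus diabetic was -0.04 ± 0.40 on the log2 scale (SE; adjusted p = 0.972 by limma), with a 95% interval of -0.88 to 0.79. Diabetic minus normal was 0.12 ± 0.40 (95% interval -0.72 to 0.96), and treated normal minus normal was -0.37 ± 0.40 (adjusted p = 0.792). L08595_at failed the filter, with 30.1 to 295.8 in treated diabetic, 30.7 to 221 in diabetic, 111.3 to 341.4 in treated normal and 19.7 to 268.2 in normal arrays.

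Fos, the partner of the JUN proteins in the AP-1 transcription factor, had every diabetic array above every normal array in 2 of its 3 probe sets, without passing the test. X06769cds_g_at had signals of 2847.9, 3075.8, 3230.6, 3291.7 and 3818.8 in diabetic replicates, against 1866, 1963.1, 1889.5, 1326.8 and 2237 in normal replicates. By X06769cds_at the signals were 506.4, 654.2, 747.2, 801 and 797.3 in diabetic replicates, against 406.9, 410.4, 109.4, 234.2 and 151.1 in normal replicates. The diabetic arrays lay close together in both, and the groups did not overlap. X06769cds_at was dim: it lay above its array's 40th percentile in 5 of 5 diabetic, 2 of 5 normal, 2 of 5 treated diabetic and 1 of 5 treated normal arrays. Its 5 diabetic arrays alone were enough for the filter, which partly fixed the order of the 2 groups. The differences were 0.82 ± 0.33 (SE; 1.76-fold, adjusted p = 0.204 by limma) and 1.51 ± 0.54 (2.85-fold, adjusted p = 0.155), the second 0.87 with the 3'/5' ratios as covariates.

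Treated diabetic muscle spread widely for Fos. X06769cds_g_at had 3492, 4197.7, 1699.9, 8440.9 and 1945.7 in treated diabetic replicates, and 2547.9, 3982.3, 3129.8, 2161.5 and 3140.2 in treated normal replicates. Replicate 4 of the treated diabetic group was the highest and replicates 3 and 5 were below every untreated diabetic array. Its SD of log2 signal was 0.93 in treated diabetic and 0.15 in diabetic muscle. X06769cds_at had 196.8, 1286.1, 279.6, 1763.9 and 172.9 in treated diabetic replicates, with replicates 2 and 4 high. The third probe set, X03347cds_g_at, had 1001.1, 1788.4, 323, 3227.9 and 264.8 in treated diabetic, against 1311.5, 1717.6, 1562.9, 1617.3 and 2027.7 in diabetic replicates. Treated normal arrays ran from 126.9 to 397.7 for X06769cds_at, and for X03347cds_g_at treated normal arrays ran from 246.8 to 1388.3 and normal arrays from 268.8 to 1451.1. Treated diabetic minus diabetic ran from -0.88 to 0.04 over the 3 probe sets, with adjusted p between 0.467 and 0.966 by limma.

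Jun, the DNA-binding partner of FOS, had 4 probe sets and 0 calls. The difference between treated diabetic and diabetic muscle was positive in all 4, between 0.16 and 0.77, and treated normal minus normal was positive in all 4, between 0.66 and 1.11, with adjusted p of 0.347 or more by limma. rc_AA945867_at had 1462.8, 1572.3, 1216.5, 2373 and 2726.8 in treated diabetic replicates and 1660.5, 1266.6, 1485.6, 1142.4 and 1823.9 in diabetic replicates. Its signals were 1174.8, 1462.8, 456.7, 1825.6 and 1847.7 in treated normal and 2665.4, 795.1, 882.5, 442.3 and 305 in normal replicates. Normal replicate 1 lay above every diabetic array, and the other normal arrays lay below all of them. For this probe set diabetic minus normal was 0.92 ± 0.46 (SE; adjusted p = 0.320 by limma) and treated diabetic minus normal was 1.21 ± 0.46 (adjusted p = 0.337). Without the 3 arrays of high Gapdh ratio, normal replicate 1 among them, the differences were 1.58 (adjusted p = 0.0331) and 1.94 (adjusted p = 0.0300). The normal arrays left there, replicates 2, 4 and 5, had log2 beta-actin 3'/5' ratios of 0.63, 0.58 and 0.58. All diabetic arrays had 0.93 or more, and the treated diabetic arrays left had 1.20 or more. The part of this ratio in the 2 differences was not tested. With the 3'/5' ratios as covariates treated diabetic minus normal was 0.72 (adjusted p = 0.538), and it passed in 1 of 31 alternatives.

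Across the 20 arrays rc_AA945867_at correlated with the beta-actin 3'/5' ratio at r = 0.66, given as a description. The other Jun probe sets ranged widely. rc_AA944014_at ran from 685.9 to 1457.8 in treated diabetic, 163.6 to 1388.9 in diabetic, 625.1 to 1289.4 in treated normal and 427.3 to 846.6 in normal arrays. rc_AI175959_at ran from 1370.6 to 5650.9 in treated diabetic, 1900.1 to 3083.1 in diabetic, 2273.8 to 5299.2 in treated normal and 310.7 to 4815.5 in normal arrays. X17163cds_s_at ran from 122.4 to 1003.6 in treated diabetic, 169.6 to 570.4 in diabetic, 505.9 to 1787.8 in treated normal and 179.8 to 1159.6 in normal arrays. All groups overlapped in each of these 3.

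Junb, an AP-1 member that in several settings restrains JUN, had differences of the opposite sign to Nr4a1 in both diabetic comparisons. For rc_AA891041_at the signal was 822.7, 1227.8, 1127.2, 983.8 and 375.5 in treated diabetic replicates, against 1129, 1717.3, 1499.7, 1784.6 and 1891.5 in diabetic replicates. Treated normal arrays had 742.3, 535.2, 1539.4, 689.9 and 688.9, and normal arrays split, with 586.6, 726.5, 1597.4, 2245.7 and 607.1. The diabetic arrays ran from 1129 to 1891.5, all below normal replicate 4, and the lowest of them lay below the highest treated diabetic array. In Junb, treated diabetic minus diabetic was -0.89 ± 0.39 on the log2 scale (SE; adjusted p = 0.263 by limma), and diabetic minus normal was 0.67 ± 0.39 (adjusted p = 0.393). X54686cds_at had 369.1, 929.7, 427.7, 757.9 and 116.5 in treated diabetic, against 920.1, 964.8, 1086.1, 912.4 and 684 in diabetic replicates. In this probe set treated normal arrays ran from 290.4 to 810.9 and normal arrays from 113.3 to 1123.7. By X54686cds_at the 2 differences were -1.06 ± 0.51 (adjusted p = 0.309) and 0.83 ± 0.51 (adjusted p = 0.427).

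Egr1, a zinc finger factor induced through serum response factor, gave the smallest p among the members whose values were higher in diabetic than in normal muscle. AF023087_s_at had signals of 7394.5, 3508.2, 7964.3, 4090.9 and 7078.3 in diabetic replicates, against 3239.9, 3186.3, 3425.6, 1820.5 and 2025.7 in normal replicates. All diabetic arrays lay above all normal arrays, diabetic replicate 2 by a small margin. Treated diabetic replicates had 3894.4, 4478, 2847, 9134.2 and 7014.7, and treated normal replicates had 3824.9, 3089.6, 2572, 4634.1 and 2884.9. Diabetic minus normal was 1.10 ± 0.33 (SE; 2.14-fold), with an adjusted p of 0.0866 by limma. It was 0.61 with the 3'/5' ratios as covariates (adjusted p = 0.406), 0.81 without diabetic replicates 1 and 3 together (0.665), and 1.32 once the 3 arrays with a high Gapdh ratio were left out (0.0446). For this Egr1 probe set treated diabetic minus diabetic was -0.18 ± 0.33, with a 95% interval of -0.86 to 0.50.

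Diabetic replicates 1, 3 and 5, the high arrays for AF023087_s_at, also had beta-actin 3'/5' ratios of 2.30, 2.52 and 1.97, against 0.93 and 1.05 in diabetic replicates 2 and 4, and over all 20 arrays the probe set correlated with that ratio at r = 0.66. The normal arrays left without those of high Gapdh ratio, replicates 2, 4 and 5, had beta-actin ratios of 0.63, 0.58 and 0.58. Diabetic replicates 1 and 3 also had the highest immune marker level, and immune cells' part in the difference was not tested. The other 3 Egr1 probe sets gave diabetic minus normal values of 0.82 ± 0.43 (M18416_at), 0.30 ± 0.32 (rc_AI176662_s_at) and -0.47 ± 0.44 (U75398_s_at), with adjusted p of 0.349, 0.668 and 0.616 by limma. The sign thus differed between probe sets of this gene. M18416_at ran from 297.3 to 2152.8 in treated diabetic, 677.3 to 1118.9 in diabetic, 593.6 to 744.5 in treated normal and 215.1 to 794.6 in normal arrays. rc_AI176662_s_at ran from 453.5 to 1261.1 in treated diabetic, 370.8 to 681.5 in diabetic, 308.4 to 810 in treated normal and 230.3 to 571.7 in normal arrays. U75398_s_at ran from 462.3 to 1153 in treated diabetic, 446.3 to 1151.5 in diabetic, 198.2 to 1419.6 in treated normal and 560.9 to 1632.3 in normal arrays. The groups overlapped in each of these 3.

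Atf3, a repressor of the CREB family induced by stress, had its highest mean in treated diabetic muscle, without passing the test. M63282_at had signals of 2131.9, 2421.6, 2634.1, 6627.4 and 935.1 in treated diabetic replicates, against 1222.7, 971.6, 1060.2, 1551.5 and 826.2 in diabetic replicates. Treated normal replicates had 1412.9, 2332.8, 2162.3, 1299.9 and 1008, against 1389, 1389.4, 1707.4, 1398.1 and 953.1 in normal replicates. Of the treated diabetic arrays 4 lay above every diabetic array, and replicate 5 lay among them. Treated diabetic minus diabetic was 1.13 ± 0.37 (SE; 2.19-fold, adjusted p = 0.164 by limma), and 0.77 ± 0.32 without replicate 4 of the treated diabetic group. Diabetic minus normal was -0.28 ± 0.37, with a 95% interval of -1.06 to 0.49.

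**Figure D4:**
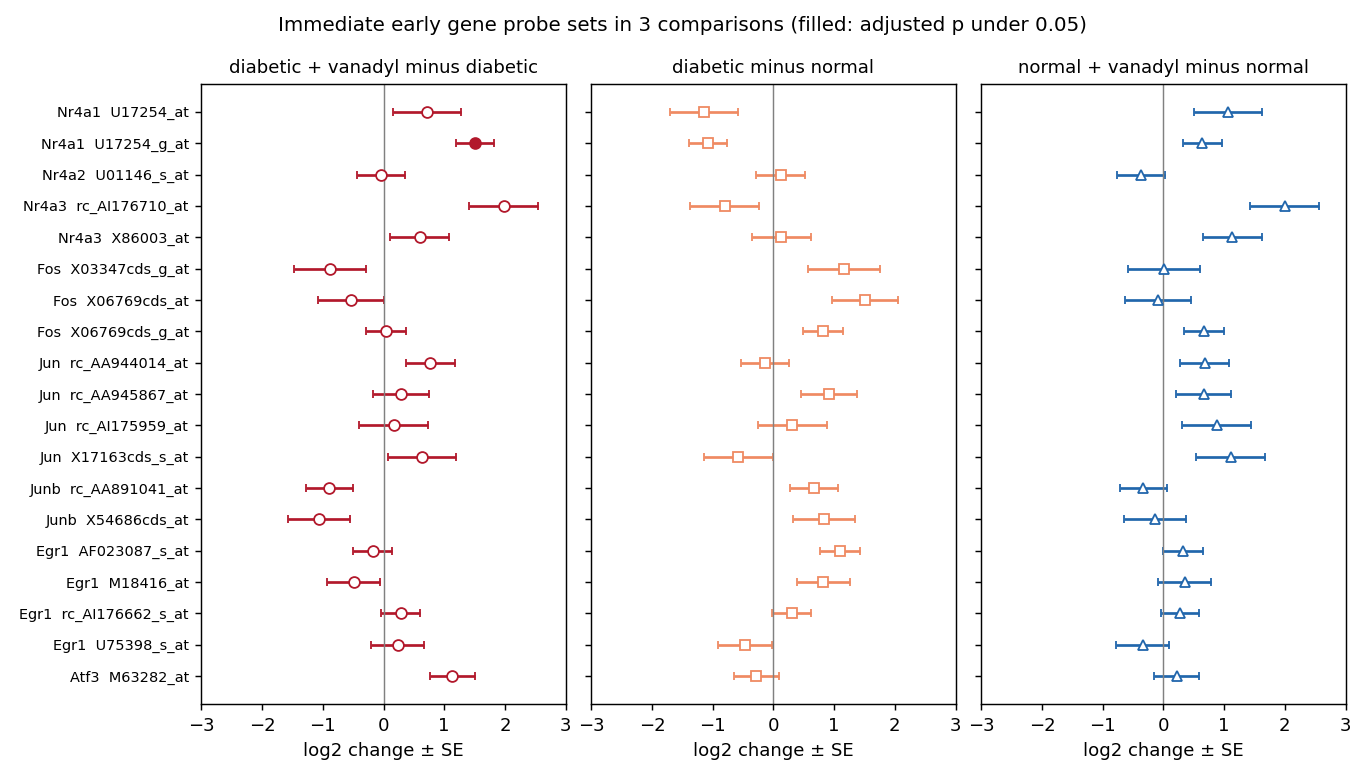
Log2 change ± SE of the 19 tested member probe sets for treated diabetic minus diabetic, diabetic minus normal and treated normal minus normal (x axis); the filled point passed at an adjusted p under 0.05. Nr4a1 U17254_g_at at 1.51 is the single filled point, and probe sets of 1 gene can lie on both sides of 0, as for Egr1 in the middle panel.

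Over the 19 tested member probe sets, 12 of the differences between treated diabetic and diabetic muscle were positive, with a median of 0.23 against 0.08 over all tested probe sets. Besides Nr4a1, an unadjusted p under 0.05 was reached by Nr4a3 and Atf3, higher, and Junb rc_AA891041_at, lower: 4 of 19, against 16.3% of all tested probe sets. In diabetic against normal muscle 0 members were called by limma, against 1.83% of all tested probe sets, and 4 of 19 had an unadjusted p under 0.05, against 16.7%. The member median there was 0.30, against -0.06 over all. The diabetic arrays lay above the normal ones without overlap for 3 of 19, the 2 Fos probe sets and Egr1 AF023087_s_at, against 3.33%. For Fos X06769cds_at the filter partly fixed this, since its diabetic arrays alone were enough to pass it.

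In treated normal against normal muscle 0 members were called, against 0.0664% of all tested probe sets, and 2 of 19, both Nr4a3, had an unadjusted p under 0.05, against 9.23%. The member median was 0.35, against 0.18 over all tested probe sets. Quantile normalization moved the overall median of this comparison by -0.14, to 0.03, and the member median to 0.18. Treated diabetic against normal and treated diabetic against treated normal gave 0 member calls each, against 0% of all tested probe sets in both. The unadjusted p was under 0.05 for 4 of 19 and 1 of 19, against 12.8% and 17.9%. Quantile normalization moved the overall medians of treated diabetic against treated normal muscle and of the interaction by 0.18 and 0.14, with 3 and 1 member probe sets of another sign, all with differences of at most 0.09. For the interaction 0 of 19 passed, against 0.166%, and 0 had an unadjusted p under 0.05, against 13.3%.

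Contrasts averaged over both kinds of rat, added after the values were seen, also gave 0 member calls by limma. The treatment average of Nr4a3 rc_AI176710_at was 1.99 ± 0.40 (SE; adjusted p = 0.0587) and that of Nr4a1 U17254_g_at was 1.07 ± 0.22 (adjusted p = 0.0601), where 0.0996% of all tested probe sets passed. The Nr4a3 value carries the filter limit given above, since the probe set was tested through its treated arrays. The diabetes average of Egr1 AF023087_s_at was 0.85 ± 0.23 (adjusted p = 0.0572), that of Fos X06769cds_at was 1.28 ± 0.38 (0.0740) and that of Nr4a1 U17254_at was -1.32 ± 0.40 (0.0755), where 2.09% passed. The Fos value too carries a filter limit, since its diabetic arrays alone were enough to pass the filter.

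Some arrays were the highest or lowest of their group in many member probe sets. The 19 tested probe sets cover 8 genes, so they are not separate observations, and the share over all tested probe sets is not given. Treated diabetic replicate 4 was the highest of its group in 11 of the 19 tested probe sets, and replicate 5 was the lowest in 10. Diabetic replicate 5 and normal replicate 3 were the highest of their groups in 7 each, and no treated normal array in more than 6. Different genes tracked each other weakly over the 20 arrays: among 153 pairs of probe sets of different genes r ran from -0.59 to 0.80 with a median of 0.16, and among 18 pairs for the same gene it ran from -0.35 to 0.69 with a median of 0.37. All pairs share the same 20 arrays.

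**Figure D5:**
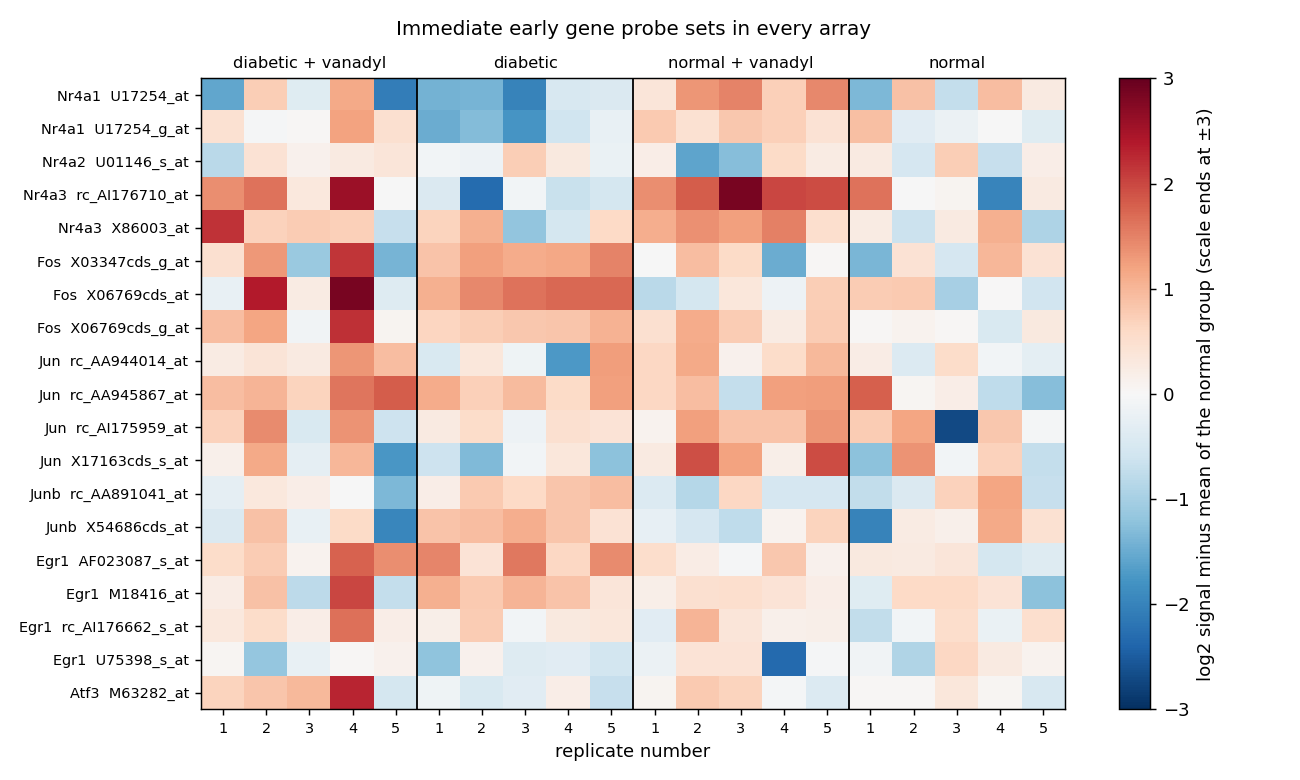
Log2 signal of the 19 tested member probe sets (rows) in each array (columns, replicate number within group), with the normal group's mean subtracted; red is higher and blue lower, and the scale ends at 3 in either direction. Treated diabetic replicate 4 is red in most rows, and Nr4a1 U17254_g_at is blue in the diabetic arrays.

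Genes with the most similar pattern to each member were ranked by Pearson correlation of log2 signal over the 20 arrays, among 3574 genes. For Nr4a1 (U17254_g_at) they were Rfk (riboflavin kinase, r = 0.79), Rxrg (retinoid X receptor gamma, 0.78) and Ppif (mitochondrial cyclophilin, 0.77). For Egr1 (AF023087_s_at) they were Cited2 (0.84), Ppp1r16b (0.83) and Klf6 (a Kruppel-like factor, 0.82), and for Jun (rc_AI175959_at) Kalrn (0.87), Magt1 (0.86) and Atp2b1 (a plasma membrane calcium pump, 0.86). For Fos (X06769cds_g_at) they were Gstm2 (0.73), Gstm7 (0.73) and Ppp1r15a (GADD34, 0.69), for Junb (rc_AA891041_at) Mboat7 (0.75), Bgn (biglycan, 0.67) and Foxs1 (0.67), and for Atf3 Adora1 (0.66), Ntf3 (0.64) and Epha8 (0.64). For Nr4a2 (U01146_s_at) they were Eif2b5 (0.70), Slc22a7 (0.67) and Wdr74 (0.67), and for Nr4a3 (X86003_at) Ghrhr (0.74), Espn (0.68) and Apoa4 (0.68). These are descriptions of the highest of many correlations.

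Other early response genes, 32 of 50 with a tested probe set, gave 3 that rose and 0 that fell in diabetic against normal muscle, against 1.34% and 0.726% of 3582 genes. The list was chosen with earlier results of these data known, so its counts are a description. Nfkbia, the inhibitor of NF-kappa-B, had signals of 3825.4, 1933.1, 4303.9, 2326.1 and 2491.7 in diabetic replicates, against 1044.9, 704.3, 788.5, 702.5 and 1023.9 in normal replicates, a rise of 1.74 ± 0.27 (SE; adjusted p = 0.00257 by limma). Myc, a growth-promoting factor, had 1043.5, 529.6, 900.5, 543.8 and 650.3 in diabetic replicates, against 355.1, 205.8, 367.6, 239.2 and 267.4 in normal replicates, a rise of 1.29 ± 0.25 (adjusted p = 0.0141). Cebpd, a factor of the acute phase response, had 5022.6, 3285.5, 6924.6, 3165.1 and 3603 in diabetic replicates, against 2178.1, 1639.2, 1033.3, 1504.6 and 884.8 in normal replicates, a rise of 1.60 ± 0.32 (adjusted p = 0.0148). In all 3 the groups did not overlap, against 3.33% of all tested probe sets with every diabetic array above every normal one. The 3 were named because they passed on these same arrays, so this adds no support to the calls. Their highest 2 diabetic arrays were replicates 1 and 3, those with the highest immune marker level.

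Without these 2 arrays together 0 of the 32 passed, with differences of 1.40 (adjusted p = 0.0996), 0.99 (0.254) and 1.27 (0.263) for Nfkbia, Myc and Cebpd. The count was 1 without diabetic replicate 1 and 1 without replicate 3, and it was 8 without normal replicate 1 and 5 without treated normal replicate 5. Leaving out the 3 arrays of high Gapdh ratio gave 7. A second probe set of Myc also rose (2.38, adjusted p = 0.0417), and a second of Nfkbia gave 1.43 (adjusted p = 0.141). The other 2 Cebpd probe sets gave -0.27 (adjusted p = 0.621) and 2.41 (adjusted p = 0.122). The list median was 0.41, against -0.06 over all tested probe sets.

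In treated diabetic against diabetic muscle 0 of these 32 genes passed by limma, against 0.0838% of genes that rose and 0.558% that fell, and 10 had an unadjusted p under 0.05, 5 in each direction, against 16.3% of all tested probe sets. The smallest p belonged to Gadd45a, a stress-induced cell cycle gene (-1.63 ± 0.45, adjusted p = 0.115), Ptgs2, the inducible cyclooxygenase (1.60 ± 0.47, 0.122), Nfkbia (-0.87 ± 0.27, 0.140) and Btg1, an antiproliferative gene of the family of Btg2 (2.01-fold lower, SE 0.32 on the log2 scale, 0.158). Gadd45a ran from 620.7 to 1991.1 in treated diabetic and from 2401.9 to 7847.3 in diabetic arrays. Treated normal against normal gave 0 calls and a list median of 0.34, against 0.18 over all tested probe sets.

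Upstream factors and their partners, 17 of 37 with a tested probe set and including CREB, protein kinase A, CaM kinase, MAP kinase and RXR genes, gave 0 calls by limma in all 6 comparisons. Of the 17, 4 had an unadjusted p under 0.05 in diabetic against normal muscle, all lower, against 16.7% of all tested probe sets in either direction. Rxrg, whose protein pairs with some of the NR4A receptors, was the one of these with the smallest p in treated diabetic against diabetic muscle (1.04 ± 0.31 by limma, SE, adjusted p = 0.122), and diabetic minus normal was -1.01 ± 0.31 (adjusted p = 0.0996). It ran from 13945.3 to 26230.2 in treated diabetic, 5620.4 to 16343.2 in diabetic, 12166.9 to 28435.9 in treated normal and 13703.9 to 22103.3 in normal arrays. In the same comparison Camk2b gave 0.54 ± 0.32 (adjusted p = 0.394), Mapk9 0.44 ± 0.34 (0.534) and Prkar2a 0.36 ± 0.29 (0.542).

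Genes of sugar metabolism known from rodent muscle to follow the NR4A receptors, 10 of 12 with a tested probe set, gave 2 that fell and 0 that rose in diabetic against normal muscle, against 0.726% and 1.34% of genes. This list too was chosen with earlier results of these data known, so its counts are a description. Slc2a4, the insulin-responsive glucose transporter GLUT4, had 6972.1, 9705.2, 7833.5, 12734.1 and 7699.5 in diabetic replicates, against 24700.6, 24581.1, 15608.8, 15682.9 and 19810.8 in normal replicates, and fell by 1.16 on the log2 scale (SE 0.29, adjusted p = 0.0450 by limma). Phkg1, which encodes the catalytic part of phosphorylase kinase in muscle, had 4020, 10541.4, 3783.7, 9997.1 and 7611.3 in diabetic replicates, against 16476.2, 19070.2, 9562.7, 28132.1 and 24632.3 in normal replicates, and fell by 1.48 (SE 0.35, adjusted p = 0.0344). The groups did not overlap for Slc2a4, named because it passed on these same arrays, and overlapped through normal replicate 3 for Phkg1. Diabetic replicates 3 and 1, those with the highest immune marker level, were the lowest 2 for Phkg1, and replicate 1 was the lowest for Slc2a4. Over all tested probe sets 3 calls were left without these 2 arrays together, against 110 with them. The part of immune cells in the 2 differences was not tested. A second Slc2a4 probe set gave -0.42 (adjusted p = 0.533), and 2 more of Phkg1 gave -2.68 (0.166) and -1.72 (0.366).

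In treated diabetic against diabetic muscle 0 of these 10 passed, against 0.0838% of genes that rose and 0.558% that fell, and 4 had an unadjusted p under 0.05, against 16.3% of all tested probe sets. They were Pgam2, muscle phosphoglycerate mutase (1.21 ± 0.36, adjusted p = 0.122 by limma), Slc2a4 (0.72 ± 0.29, 0.238), Ucp3, a mitochondrial uncoupling protein (-1.64 ± 0.66, 0.238), and Eno3, muscle enolase (0.76 ± 0.35, 0.280). Slc2a4 had 12435.7, 18060.2, 17731, 23396.6 and 6730.1 in treated diabetic replicates, with replicate 5 below every diabetic array. Treated diabetic replicate 5 was also the lowest of its group in 10 of the 19 member probe sets. In treated normal against normal muscle 0 of these 10 genes passed, and 3 had an unadjusted p under 0.05, all lower, against 9.23% of all tested probe sets. They were Ucp3 (-1.65 ± 0.66, adjusted p = 0.493 by limma), Pgam2 (-0.84 ± 0.36, 0.513) and Phkg1 (-0.74 ± 0.35, 0.534). The list median there was -0.35, against 0.18 over all tested probe sets.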

How the data were processed

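Polyadenylated RNA of 20 rear-leg muscle samples was labelled with biotin and hybridised to Affymetrix arrays, per the labels' protocols. The deposited table holds 1 intensity value per probe set and array, the signal that the authors computed with MAS5, per the submitters' processing notes; the labels state no scaling target and no genome build. The arrays' 2% trimmed means agree, as the table shows, so the values were already scaled, and they were used as deposited. All 20 columns were matched to samples by title, and groups come from the titles.

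Values were taken as log2(signal + 16). The 59 control probe sets and those not above the array's 40th percentile in at least 5 of 20 arrays were left out, which kept 6027 of 8799. The filter does not use the groups, but a probe set bright in 1 group alone can pass it through that group. All 4 groups entered 1 limma fit (3.58.1, R 4.3.3; lmFit and eBayes) with 6 contrasts, and p-values were adjusted by Benjamini-Hochberg over the 6027 probe sets within each contrast, with a threshold of 0.05. Fold changes are on the log2(signal + 16) scale, which understates those of dim probe sets, and the 5 arrays per group limit the precision. The procedure was tested on simulated data.

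Genes were named from the platform annotation, which gives 1 symbol for 7018 probe sets, several for 308 and does not list 1473. A gene in a list was represented by its brightest tested probe set. The members and the gene lists were chosen with earlier results of these data known. All member probe sets are named; of each list, the genes that passed, otherwise up to 4 with the smallest p in treated diabetic against diabetic muscle, and for each member the 3 genes of highest correlation. Promoter windows come from RefSeq, and 5 of the 9 genes matched.

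Alternatives were pseudocounts of 1 and 64, no filter and a stricter one (50th percentile, 10 arrays), quantile normalization, each array left out, replicate number as a block, only the groups compared, 3'/5' ratios as covariates, arrays of log2 Gapdh ratio above 2 left out, and array weights. Leaving out diabetic replicates 1 and 3 together, the average contrasts and the probe set relations were added after seeing the data.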

Additional observations from a re-analysis of the deposited data

Results flagged for a closer look

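In 6 of the 76 groups of 5 arrays checked, 1 array stood apart from the other 4 by more than Dixon's critical value on the log2 scale; chance gives about 1 in 20 groups. In treated diabetic muscle these were replicate 4 for Egr1 rc_AI176662_s_at, with a signal of 1261.1 against 453.5 to 584.5 in the others, replicate 1 for Nr4a2 U01146_s_at, with 259.2 against 504.3 to 631.4, and replicate 2 for Egr1 U75398_s_at, with 462.3 against 899.7 to 1153. In diabetic muscle it was replicate 2 for Nr4a3 rc_AI176710_at, with 23.3 against 106.6 to 169.2. In treated normal muscle it was replicate 4 for Egr1 U75398_s_at, with 198.2 against 934.6 to 1419.6. In normal muscle it was replicate 1 for Nr4a1 U17254_g_at, with 28033.2 against 11822.4 to 14940.8; this array also had a high Gapdh 3'/5' ratio, and the part of RNA quality in the value was not tested.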

How the results depend on the processing

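The member differences with an unadjusted p under 0.05 and the rises of Nfkbia, Myc and Cebpd kept their sign under the alternatives run; among all 19 member probe sets, quantile normalization turned the sign of 1 in treated normal against normal muscle, 3 in treated diabetic against treated normal muscle and 1 in the interaction, all of at most 0.09. The count of member probe sets called in treated diabetic against diabetic muscle, 1, was 0 without the filter, 0 with only the 2 groups compared, 0 without diabetic replicates 1 and 3 together, 3 with array weights (Nr4a1 U17254_g_at, Atf3 with an adjusted p of 0.0428 and Nr4a3 rc_AI176710_at with 0.0431), and 0 to 1 when single arrays were left out. With array weights 1.86% of all tested probe sets were called there, and the Nr4a3 probe set was tested only through its brighter treated groups. Nr4a1 passed in 22 of 31 alternatives. In diabetic against normal muscle the count, 0, was 2 without the arrays of high Gapdh ratio (Egr1 AF023087_s_at, adjusted p = 0.0446, and Jun rc_AA945867_at, 0.0331), 1 with array weights (Egr1 AF023087_s_at, 0.0268) and 0 to 1 when single arrays were left out. In treated diabetic against normal muscle the count, 0, was 1 without the arrays of high Gapdh ratio (Jun rc_AA945867_at). The other 3 comparisons gave 0 throughout. The count of other early response genes in diabetic against normal muscle, 3, was 7 without the arrays of high Gapdh ratio, 11 with array weights, 0 without diabetic replicates 1 and 3 together and 1 to 8 when single arrays were left out; in treated diabetic against diabetic muscle, 0, it was 1 with array weights (Klf10) and 0 to 1 when single arrays were left out. The causes were not tested. With replicate number as a block, Nr4a1 had an adjusted p of 0.0313 and no member call changed; the block gave 106 calls over all probe sets in diabetic against normal and 39 in treated diabetic against diabetic muscle, against 110 and 30 without it, and in treated diabetic against treated normal muscle it gave 16, against 0. Deviations of same-numbered arrays of different groups correlated at -0.28 to 0.62 (mean 0.077, 30 pairs). Those of arrays with different numbers correlated at -0.49 to 0.41 (mean -0.018, 120 pairs). Whether the numbers pair the samples was not tested. Dim probe sets such as Nr4a3 rc_AI176710_at were left out by the stricter filter. Over all probe sets, the 110 calls of diabetic against normal muscle became 464 without the arrays of high Gapdh ratio, 515 with array weights, 71 with only the 2 groups compared, 62 without the filter, 32 with the 3'/5' ratios as covariates, 3 without diabetic replicates 1 and 3, and 24 to 247 when single arrays were left out. The 30 calls of treated diabetic against diabetic muscle became 112 with array weights, 19 without the filter, 11 with only the 2 groups compared, 1 without diabetic replicates 1 and 3, and 10 to 59 when single arrays were left out, and the 0 of treated diabetic against normal muscle became 359 without the arrays of high Gapdh ratio.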
